A study of Mus musculus with 9 samples.

Results

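The net change in gene expression between E12.5 and E10.5 was examined in lambdoidal junction tissue of C57BL/6J mouse embryos, using the 3 libraries of each of these stages (6 of the 9 libraries of the series) and all 54532 genes of the count table, of which 15899 had enough counts to be tested. No genotype, allele or treatment separated the groups, and embryonic stage was the only difference between them that the labels give. Each stage had its own pregnant mice and dissections, so effects of litter or dissection cannot be told apart from those of stage. Each library was made from the pooled tissue of many embryos, so its value is an average over embryos and the spread between embryos was not measured. The 3 E11.5 libraries were used to divide each change into a first interval (E11.5 vs. E10.5) and a second interval (E12.5 vs. E11.5), which share those libraries with each other and the outer stages with the whole span.

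The lambdoidal junction is the place where the maxillary prominence joins the nasal prominences on its lateral and medial side to form the upper lip and primary palate. Its core is neural crest-derived mesenchyme, which proliferates first and later lays down matrix and begins to form cartilage and bone, and its cover is a surface epithelium that changes from simple to stratified. Over the same days embryonic tissues in general leave an early proliferative program that is kept up by RNA-binding proteins such as Lin28a and Lin28b, which block the processing of the let-7 family of microRNAs. Because the libraries hold the whole tissue, fewer cells of a type and less RNA per cell cannot be told apart in any of the values that follow.

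Transcripts of facial mesenchyme and of epithelium were present in every library. Prrx1, a mesenchymal homeobox gene, lay between 301 and 552 CPM (read counts scaled to library size after TMM normalization) and the epithelial adhesion gene Cdh1 between 76.5 and 133 CPM. One library stood apart before any comparison was made. Log2 differences between E10.5 replicates 1 and 2 had an SD over genes of 0.393, but this SD was 0.711 and 0.703 between replicate 3 and each of them, against 0.373–0.591 within the other stages. The deviation of each E10.5 library from the mean of its stage was set against GC content. Spearman's rho across genes was −0.546 for replicate 3 and 0.438 and 0.469 for replicates 1 and 2. Deviations within a stage sum to 0, so these opposite signs are not independent. In the same library the summed level of 20 endothelial genes was 236 CPM (652–676 in the other E10.5 libraries) and that of 18 genes of simple epithelium was 1250 CPM (739–830). Its part in the results was not tested as a cause, and counts that rest on it are given with and without it. Depth was 16959676–17756251 counts at E10.5 and 16581009–17919664 at E12.5.

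Sequences of the let-7 family and of its target sites are given first, because the genes that fell most over the span carried these sites more often than other genes. The members with a RefSeq entry share the seed (bases 2 to 8, in capitals), as shown here by 3 of them:
mmu-let-7a-5p: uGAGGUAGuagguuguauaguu
mmu-let-7g-5p: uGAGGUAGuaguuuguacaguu
mmu-miR-98-5p: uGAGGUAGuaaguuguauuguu

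In DNA letters, the 8-base match to this seed followed by A is CTACCTCA, and it was searched for on the transcribed strand of the 3′ UTRs of GENCODE vM21 (GRCm38). It was found in 47 of 636 downregulated genes with an annotated 3′ UTR (7.39%), in 50 of 1426 upregulated genes (3.51%) and in 514 of all 13819 tested genes with a 3′ UTR (3.72%). Among the downregulated genes that fell at least 4-fold, it was found in 20 of 191 (10.5%). Per kb of 3′ UTR there were 0.0545 sites in the downregulated genes, 0.117 in those that fell at least 4-fold and 0.0234 in all genes tested, and the median 3′ UTR lengths were 1215, 1012 and 1218 bases. One site of each of 6 leading downregulated genes is shown with 8 bases on either side (Lin28a and Igdcc3 have 2 sites each and Trim71 has 4, the others 1):
Lin28a, chr4:134005181-134005204, minus strand: ctgttgaaCTACCTCAtttttgcc
Lin28b, chr10:45381014-45381037, minus strand: cgggaagtCTACCTCAtgcaagca
Igdcc3, chr9:65185714-65185737, plus strand: ctcagcacCTACCTCAgccggaat
Trim71, chr9:114512464-114512487, minus strand: cctaagtcCTACCTCAgcttaaat
Prtg, chr9:72912565-72912588, plus strand: ctgaatagCTACCTCAgtttgctg
Sall4, chr2:168748932-168748955, minus strand: taatttatCTACCTCAattatctt

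The next 3 sites, 1 for each gene (Igf2bp1 has 3), are from genes that fell slowly, by at least 2-fold over the span and by less than 2-fold in each interval:
Bcat1, chr6:144994025-144994048, minus strand: atgggaaaCTACCTCAttctccca
Igf2bp1, chr11:95961770-95961793, minus strand: gaagtaaaCTACCTCAaggtgtga
Dna2, chr10:62974076-62974099, plus strand: aaaaacttCTACCTCActgagtgg

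Another microRNA known from the same developmental switch is miR-125b, with the seed in capitals:
mmu-miR-125b-5p: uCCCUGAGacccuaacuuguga

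Its 8-base match, CTCAGGGA, was present in 9.43% of downregulated, 4.21% of upregulated and 5.63% of all genes. Sites of 5 other microRNAs gave 2.04–6.76% in downregulated genes and 2.89–5.37% in all genes. The share in downregulated genes was above that in all genes for miR-200b (5.19% and 4.03%), miR-29a (4.72% and 3.4%) and miR-199a (6.76% and 5.37%). It was below for miR-17 (4.25% and 4.45%) and miR-92a (2.04% and 2.89%). In genes that fell at least 4-fold, sites of miR-125b were in 8.38%, of miR-200b in 7.33% and of the rest in 1.57–4.71%. These shares are descriptions of sequence, the levels of the microRNAs were not measured, and a site is not evidence that it is used.

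Over the whole span more genes rose than fell. Of the genes tested, 15% were differentially expressed genes (DEGs), defined by at least 2-fold change and a p-value of 0.05 or less in edgeR's quasi-likelihood test after Benjamini-Hochberg adjustment. The upregulated DEGs numbered 1585 (9.97% of the genes tested) and the downregulated DEGs 807 (5.08%). Large changes were more frequent upward, with 651 genes that rose and 265 that fell at least 4-fold, and 140 and 58 at least 16-fold. Among the upregulated DEGs 101 were at the limit of detection (3 counts or fewer in every library) at E10.5, and among the downregulated DEGs 31 were at it at E12.5. The libraries of E10.5 and E12.5 did not overlap in 1578 of the upregulated and 782 of the downregulated DEGs, while 42.4% of all genes tested had no overlap. Without E10.5 replicate 3 the numbers were 1710 upregulated and 1028 downregulated DEGs.

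The upregulated genes with the smallest p-values included genes of epithelium, mesenchyme and matrix. Krt5 (ENSMUSG00000061527, chromosome 15 of GRCm38 from 101707070 to 101712898, minus strand) encodes a keratin of basal cells of stratified epithelium. It was at 2.32, 1.63 and 2.42 CPM in the E10.5 libraries, at 39.9, 24.8 and 38.8 CPM at E11.5, and at 153, 152 and 149 CPM at E12.5. All 3 stages were separate, and the log2 fold change over the span was 6.16 (standard error 0.23, adjusted p = 1.87e-07 in edgeR's quasi-likelihood test, Benjamini-Hochberg adjusted). Pax1, a paired-box transcription factor of skeletal precursors, went from 0.535, 0.29 and 0.186 CPM to 104, 90.1 and 86.8 CPM, with 28.7, 9.86 and 19.7 CPM at E11.5. Its log2 fold change was 8.09 ± 0.31 (standard error). The small proteoglycan gene Ogn lay at 0.232–0.535 CPM at E10.5, 4.18–9.01 CPM at E11.5 and 65.4–83.8 CPM at E12.5, a log2 fold change of 7.60. For 2 of the leading genes the E10.5 libraries were at the limit of detection, so that their increase is a lower bound. Chodl, which encodes a membrane lectin, was at least 113-fold higher at E12.5 (17.3–22.2 CPM). Cnmd, which encodes the cartilage protein chondromodulin, was at least 89.1-fold higher (13.8–18.7 CPM).

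The other leading upregulated genes were Cpxm2, Hey2, Gsn, Anxa1, P4ha3, Inhba and Pgm5, with log2 fold changes from 4.06 to 6.67. Gsn, which encodes the actin-severing protein gelsolin, was already at 6.26–8.68 CPM at E10.5 and reached 109–126 CPM. Inhba, which encodes the activin beta A subunit, rose from 0.619–1.07 to 28.6–38.9 CPM, and most of this rise lay before E11.5 (11.7–27.7 CPM). P4ha3, a subunit of the enzyme that hydroxylates collagen, rose from 1.45–1.84 to 42–66 CPM. In none of the 12 leading upregulated genes was the call lost when any 1 of the 6 libraries was left out. They were chosen by p-value and separation in these same libraries, so this was likely from the choice alone.

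The downregulated genes were led by regulators of early development. Lin28a (ENSMUSG00000050966, chromosome 4 from 134003330 to 134018841, minus strand) was at 58.6, 74 and 110 CPM at E10.5, at 3.17, 6.16 and 3.21 CPM at E11.5 and at 0.451, 0.863 and 0.298 CPM at E12.5. Its libraries did not overlap between any of the stages, and its log2 fold change was −7.19 (standard error 0.39, adjusted p = 1.53e-06 in edgeR's quasi-likelihood test, Benjamini-Hochberg adjusted). Its paralog Lin28b was at 124, 144 and 209 CPM and then at 5.63, 7.06 and 5.43 CPM, a log2 fold change of −4.71. Igdcc3, an immunoglobulin-domain membrane protein gene, went from 367, 548 and 306 CPM through 27.1, 46.7 and 28 CPM to 5.69, 8.2 and 3.76 CPM, a log2 fold change of −6.10. Trim71, a ubiquitin ligase and RNA-binding protein gene that is a classic let-7 target, fell from 94.9–125 to 3.21–6.42 CPM. Sall4, a zinc finger factor of pluripotent and early embryonic cells, fell from 63.6–91 to 9.11–9.42 CPM.

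The others were Prtg, Dlk1, Zbtb16, Eno3, Irs4, Pax2 and Dusp9, with log2 fold changes from −5.96 to −2.47. Dlk1, an imprinted gene for a Notch-like membrane protein, was at 430–499 CPM at E10.5 and at 61.3–71.9 CPM at E12.5. Dusp9, a phosphatase of MAP kinases, fell from 194–284 to 33.6–40.2 CPM. Pax2, a transcription factor of the optic and otic primordia, was at 10.2–17.6 CPM at E10.5 and was nearly gone by E11.5 (0.0962–0.632 CPM) and E12.5 (0.0596–0.338 CPM). All 12 leading downregulated genes kept their call without any 1 of the 6 libraries, which their choice by p-value made likely too.

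**Figure D1:**
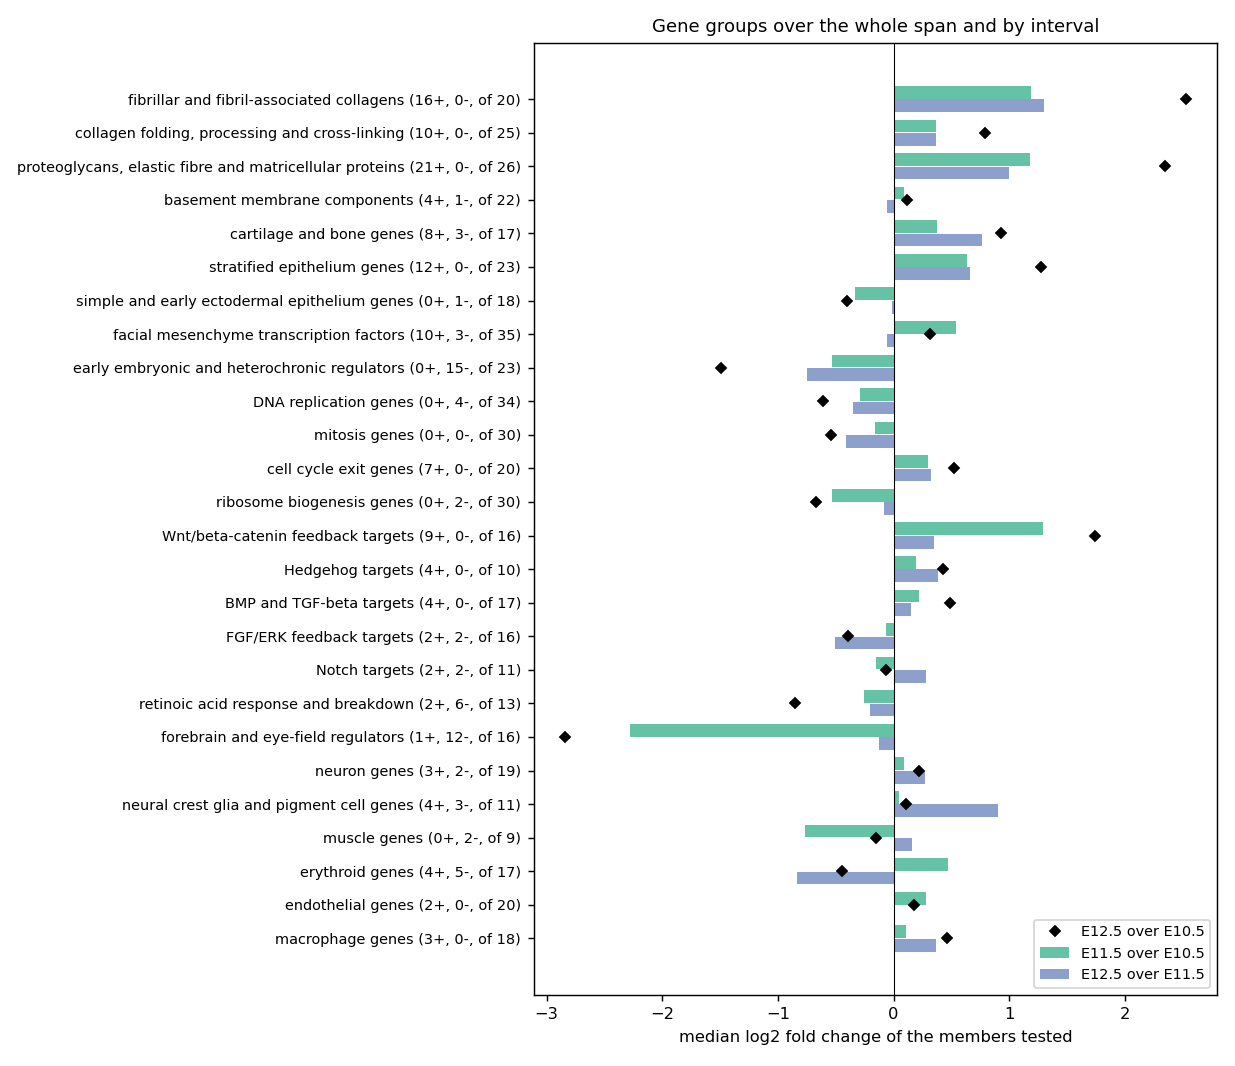
Median log2 fold change of the tested members of each of 26 gene lists over the whole span (diamonds) and in the first and second interval (bars), with the number of upregulated (+) and downregulated (-) DEGs of the span beside each name. Collagens and proteoglycans had medians of 2.53 and 2.35 over the span, heterochronic regulators −1.49, and forebrain and eye-field regulators −2.84. The last list had medians of −2.28 in the first and −0.13 in the second interval, and medians need not add up.

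Of the 26 gene lists, those of collagens and of proteoglycans had the highest medians and the largest shares of upregulated members. Among all genes tested, 9.97% were upregulated and 5.08% downregulated. The collagen list held 20 genes, fibrillar and fibril-associated types together with Col6 and Col8 chains. Of these, 16 were upregulated and none downregulated (median log2 fold change 2.53, against −0.0063 for all genes tested). Col8a1, a short-chain collagen, rose from 1.55, 0.522 and 1.98 CPM to 34, 55 and 44.8 CPM (log2 fold change 5.05). Col5a2, which takes part in building type I fibrils, rose from 58.8–79.5 to 352–431 CPM (2.47), and Col9a2, a cartilage collagen, from 5.64–11 to 58.4–63.4 CPM (2.93). Col2a1, the main collagen of cartilage, had a value of −0.86 and was the member below 0. The summed level of the list was 1150 CPM in E10.5 replicate 3 against 2310 and 2340 CPM in the other E10.5 libraries, and without that library 16 members were upregulated and 1 was downregulated.

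Of 26 proteoglycan, elastic fibre and matricellular genes, 21 were upregulated, and all 26 had a value above 0 (median 2.35). Aspn, which encodes asporin, was at 0 to 0.178 CPM at E10.5 and still at 0.289–0.43 CPM at E11.5, but at 25.6, 17.4 and 20 CPM at E12.5, an increase of at least 117-fold over the span. Postn, which encodes periostin, rose in both intervals, from 15.7–21.5 through 52.4–82.1 to 184–267 CPM. Genes that fold, process and cross-link collagen changed less, with 10 of 25 upregulated and a median of 0.79. Lox, which encodes the cross-linking enzyme lysyl oxidase, rose from 5.57–12.7 to 60.6–74.8 CPM (2.91). In 6 of these 10 (Crtap, Loxl1, Loxl2, P3h1, P3h3 and Sec24d) the rise was slow. Loxl2, for instance, was at 49.3–59.6 CPM at E10.5, at 82.7–103 CPM at E11.5 and at 103–129 CPM at E12.5.

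Basement membrane genes did not share this course. Their median was 0.11, with 4 upregulated and 1 downregulated of 22. The downregulated share was near the 5.08% of all genes tested. The upregulated genes included Col17a1 (4.42), Lama3 (4.63) and Col7a1 (2.78), all of which anchor stratified epithelium to the underlying tissue. The downregulated gene was Lama1 (−1.67), the alpha chain of the main laminin of early embryos, which fell from 46.3–71.7 to 11.6–25.8 CPM. The number of downregulated members was 3 without E10.5 replicate 3 or E12.5 replicate 1, and 2 without E10.5 replicate 1 or E12.5 replicate 2.

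Cartilage and bone genes changed in both directions, with 8 of 17 upregulated and 3 downregulated. Matn4, a cartilage matrix gene, had no count in any E10.5 library, 0.369–0.592 CPM at E11.5 and 15–19.6 CPM at E12.5, at least 94.9-fold higher. Runx3, a Runt-domain transcription factor of skeletal and immune cells, had counts in only 1 E10.5 library (0.174 CPM) and 15.6–20.1 CPM at E12.5, at least 99.9-fold higher. By contrast Matn3, a second matrilin gene, fell from 3.54–5.26 to 0.563–1.02 CPM, and the bone sialoprotein gene Ibsp fell from 0.867–1.97 to 0.113–0.298 CPM. Hapln1, a hyaluronan link protein gene, fell from 43–80.6 to 17.7–28.1 CPM, with a log2 fold change of −1.29 that was −0.94 and no longer called without E10.5 replicate 3.

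Of 23 genes of stratified epithelium, 12 were upregulated and none downregulated (median 1.28), and without E10.5 replicate 3 this was 16. Krt15, a keratin of basal cells, rose from 1.86–2.26 through 6.44–10.9 to 24.5–35.9 CPM (3.80), and Anxa1, a membrane-binding annexin, from 0.773–0.991 through 2.89–5.27 to 25.1–32 CPM (5.03). Trp63, the master regulator of stratified epithelium, was at 48.7, 56.9 and 118 CPM at E10.5 and at 61.5–75.7 CPM at E12.5, so the stages were not told apart (−0.14). The overlap came from E10.5 replicate 3 (118 CPM), since the other E10.5 libraries lay below all E12.5 libraries. Of 18 genes of simple and early ectodermal epithelium, none was upregulated and 1 was downregulated, a share near that of all genes, and 17 had a value below 0 (median −0.41). Their summed level was 1250 CPM in E10.5 replicate 3, 739 and 830 CPM in the other E10.5 libraries and 608–691 CPM at E12.5. The signs and the median thus rest in part on that replicate, and they were not recounted without it. The downregulated gene was Krt18 (−1.02), which was at 71.6, 84.3 and 129 CPM at E10.5 and at 41.6–53.7 CPM at E12.5. Its value was −0.73 without E10.5 replicate 3, where it was not called. It also lost its call without E12.5 replicate 1 or 2 and with upper quartile normalization (−0.95), and the list held 0 to 3 downregulated genes over the fits that left out 1 library (3 without E10.5 replicate 1 or E12.5 replicate 3).

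Transcription factors of facial mesenchyme moved in both directions, 10 of 35 up and 3 down, with a median of 0.32. Osr1, a zinc finger factor, rose from 3.98, 2.55 and 0.929 CPM through 10.5–11.7 CPM to 108, 59.7 and 68.3 CPM (4.98). Dlx2 and its neighbor Dlx1, homeobox genes of the pharyngeal arches, fell by 1.75 and 1.43 on the log2 scale. The summed level of the list in E10.5 replicate 3 (1960 CPM) was below that in the other E10.5 libraries (3410 and 3520 CPM), while the counts without it were again 10 and 3.

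Early embryonic and heterochronic regulators, that is genes that time developmental transitions, were the list with the most downregulated members, 15 of 23 (median −1.49). Without E10.5 replicate 3 there were 14. Besides Lin28a, Lin28b and Igdcc3 it held 5 genes that fell slowly, the DNA methyltransferase Dnmt3b, the RNA-binding protein Igf2bp1, and E2f5, Hmga1 and Mycn. None of the 23 was upregulated.

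Among genes of cell division few reached 2-fold. All 34 DNA replication genes had a value below 0 (median −0.61). An adjusted p-value of at most 0.05 without a fold-change threshold was found for 17 of them, a call that 10.5% of all genes tested had in this direction. The DEGs were 4, namely Mcm10, Rrm2, Ccne1 and Uhrf1, and all were slow. Rrm2, the regulatory subunit of ribonucleotide reductase, was at 439, 459 and 531 CPM at E10.5, at 336–371 CPM at E11.5 and at 207, 208 and 216 CPM at E12.5 (log2 fold change −1.17). Mcm10, a factor for the start of replication, fell from 127–146 to 59.3–61.8 CPM. There were 7 replication DEGs without E10.5 replicate 1 and 2 with upper quartile normalization.

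Of 30 mitosis genes, 28 had a value below 0 (median −0.54), but none reached 2-fold (1 did with DESeq2 size factors). An adjusted p-value of 0.05 was passed by 15, all lower at E12.5, against 10.5% of all genes tested in this direction. Top2a, which encodes the topoisomerase that untangles chromosomes, was at 978–1501 CPM at E10.5 and at 643–797 CPM at E12.5 (−0.72, adjusted p = 0.0338 in edgeR's quasi-likelihood test, Benjamini-Hochberg adjusted). Mki67, the proliferation marker, had a value of −0.40 that did not pass (adjusted p = 0.216 in the same edgeR test). Without E10.5 replicate 1 there were 5 downregulated mitosis genes, and without E10.5 replicate 2 there were 3, and without E12.5 replicate 2 there was 1. Ribosome biogenesis genes included 2 downregulated DEGs of 30, Heatr1 and Rrp12, a share near the 5.08% of all genes tested. All 30 ribosome biogenesis genes were below 0 (median −0.67), and 19 passed the p-value alone, against the same 10.5%. Their median was −0.53 in the first interval and −0.08 in the second, whereas the mitosis genes had −0.16 and −0.41. Without E12.5 replicate 3 there were 5 downregulated ribosome biogenesis genes, without E10.5 replicate 1 also 5, and without E10.5 replicate 2 there were 4. In E10.5 replicate 3 the summed levels were 8360 CPM for mitosis and 9380 CPM for ribosome biogenesis, above the other E10.5 libraries (6390–6460 and 6540–6910 CPM), and without it the DEG counts were 0 and 2 again.

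Genes that act when cells leave the cycle were on the other side, with 7 of 20 upregulated and none downregulated (median 0.52). Klf4, a transcription factor of differentiating epithelium, rose from 3.03–3.98 to 40.3–56.7 CPM. Gadd45b, a stress and growth arrest gene, rose from 1.86–2.5 to 10.1–15.3 CPM, and the antiproliferative gene Btg1 from 73.8–82.5 to 199–236 CPM.

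Among targets of signaling pathways, those of Wnt/beta-catenin had the most upregulated members, 9 of 16, with none downregulated (median 1.75). Dkk1, a secreted Wnt antagonist, rose from 7.49–11.2 through 35.7–51.5 to 68–81.6 CPM (2.98). Lef1, the nuclear partner of beta-catenin, was at 52.4, 50.9 and 55.5 CPM at E10.5 and at 303, 246 and 280 CPM at E12.5 (2.39). The median of the list was 1.29 in the first interval and 0.35 in the second.

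Hedgehog targets were upregulated in 4 of 10 cases, against 9.97% of all genes tested. Boc, a Hedgehog co-receptor, rose from 23.7–43.8 to 86.6–121 CPM (1.58). Gas1, which encodes a membrane protein that binds Hedgehog ligands, was at 1.07, and at 0.94 without E10.5 replicate 3, where 2 targets in all were upregulated. BMP and TGF-beta targets were upregulated in 4 of 17 cases, against the same 9.97%. Of these, Nog, a secreted BMP antagonist, was at 5.82–6.19 CPM at E10.5 and 5–6.73 CPM at E11.5, and only then rose to 15.7–19.1 CPM, while Smad9, a BMP signal transducer, went from 6.24–7.02 to 13.2–19.6 CPM by E11.5 and was at 15–19.1 CPM at E12.5.

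Feedback targets of FGF/ERK signaling had 2 upregulated and 2 downregulated members of 16 (median −0.40), against 9.97% and 5.08% of all genes tested. Dusp5, an ERK phosphatase, fell from 17.2–21.4 to 4.53–6.25 CPM (−1.82). The number downregulated was 4 without E10.5 replicate 3 or E12.5 replicate 2 and 1 without E12.5 replicate 1. The number upregulated was 1 without E10.5 replicate 1 or 3 or any E12.5 library, since Egr1 (1.16) lost its call there. Notch targets were split, with Hey2 (4.96) and Dtx1 (2.24) up and Hes5 (−3.19) and Dtx4 (−1.81) down among 11 tested.

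Retinoic acid genes changed in opposite directions within each enzyme family. Of 13 genes, 2 were upregulated and 6 downregulated. The synthesis gene Aldh1a2 rose from 3.8, 2.5 and 1.11 CPM to 64.6, 55.6 and 55.6 CPM (4.57), while its paralogs Aldh1a3 (−2.04) and Aldh1a1 (−4.05) fell. The breakdown gene Cyp26b1 rose from 7.12–22.3 to 189–272 CPM (3.77), while Cyp26c1 fell from 17.9–21.4 to 1.55–3.88 CPM (−2.93). Cyp26a1 was the downregulated DEG nearest to the fold threshold, and it lost its call without E10.5 replicate 1 or E12.5 replicate 2 or 3.

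Markers of other tissues were also followed, since the dissected region borders on brain and eye. Of 16 forebrain and eye-field regulators, 12 were downregulated and 1 was upregulated (median −2.84). Their summed level was 528–722 CPM at E10.5, 173–192 CPM at E11.5 and 201–251 CPM at E12.5. Crb2, an apical polarity gene of neural epithelium, fell from 43.1–52.8 through 6.4–7.41 to 1.19–3.67 CPM. Sox3, a neural progenitor factor, fell from 47.4–62.2 to 2.27–5.24 CPM. Emx2 was the upregulated member, from 11–13.8 to 44.4–65.6 CPM. Without E10.5 replicate 3, 10 were downregulated. How much neural tissue each dissection held was not tested.

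The counts of the neuron, glia and pigment cell, and muscle lists stand against 9.97% upregulated and 5.08% downregulated of all genes tested. Of 19 neuron genes, Stmn2, Gap43 and Ncam2 were upregulated and Isl1 and Pou4f1 downregulated (median 0.22), with 1 downregulated without E12.5 replicate 1 or 3. With so few calls, the neuron list is not read as changed. The neural crest glia and pigment cell list had 4 upregulated, among them Sox10, which rose from 4.52–7.2 to 26.2–38.2 CPM, and 3 downregulated members of 11. Its downregulated members numbered 1 without E10.5 replicate 3, without E12.5 replicate 1 and without E12.5 replicate 2. Only 9 of 26 muscle genes had enough counts to be tested, and of these Des, which encodes the muscle filament protein desmin, fell from 7.87–19.6 to 0.537–1.18 CPM, as did Myh7, which lost its call without E10.5 replicate 2 or 3 or E12.5 replicate 1 or 3.

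Globin genes changed in both directions, and any part of the shift from primitive to definitive erythropoiesis in this was not tested. Hbb-bs, an adult beta globin gene, rose from 2.26–4.34 to 70.3–89.5 CPM, and the embryonic globin gene Hbb-bh1 fell from 622–1132 to 124–204 CPM. Of 17 erythroid genes in all, 4 were upregulated and 5 downregulated. Adult globin genes have near-identical copies, so the division of reads between Hbb-bs and Hbb-bt and between Hba-a1 and Hba-a2 is uncertain. Endothelial genes had 2 upregulated members of 20, Erg and Sox18, a share near the 9.97% of all genes tested. Their median was 0.17, with 1 downregulated member without E10.5 replicate 3. Macrophage genes had 3 upregulated members of 18 (median 0.47), which was 1 without E12.5 replicate 3.

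**Figure D2:**
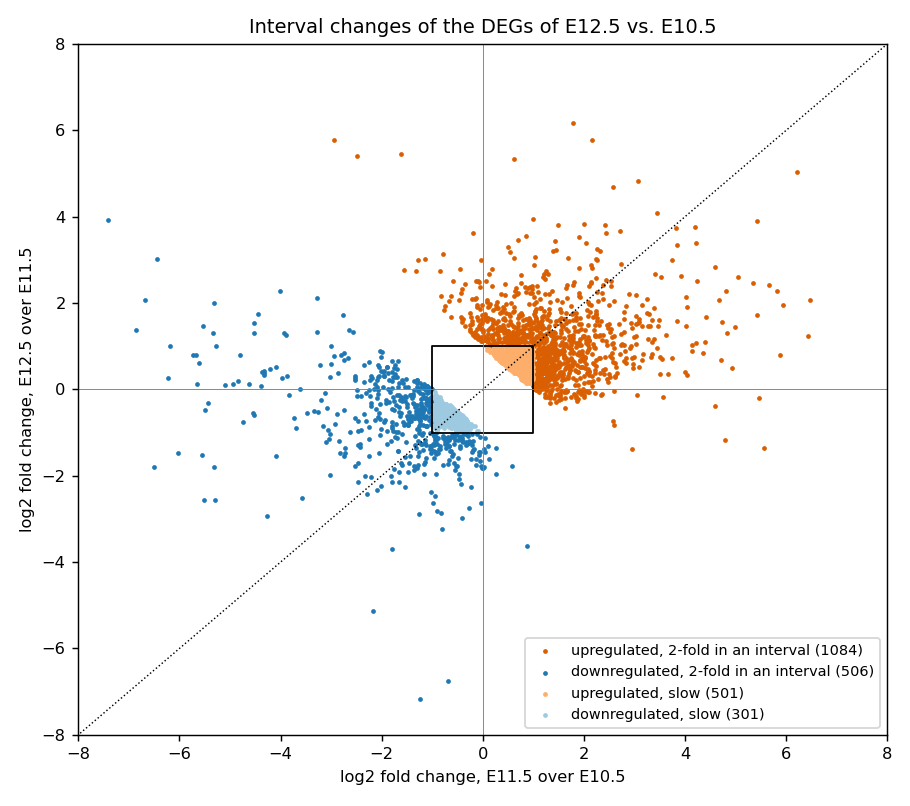
Each point is a DEG of E12.5 vs. E10.5, placed by its log2 fold change in the first interval (x axis) and in the second (y axis), with slow DEGs inside the box at 1 in lighter color and 4 points outside the axes left out. The dotted line marks equal changes, and the upregulated genes lie on both sides of it while the most strongly downregulated genes lie along the left.

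The change of most DEGs was spread over both intervals. The share of the first interval was taken as the log2 fold change of E11.5 vs. E10.5 divided by that of the whole span, both from 1 fit on the 9 libraries. Its median was 54.2% in the upregulated DEGs (quartiles 37.2% and 69.8%) and 60.1% in the downregulated DEGs (42.0% and 81.2%). A share above 50% was found in 903 of the 1585 upregulated DEGs (57.0%) and in 500 of the 807 downregulated DEGs (62.0%). The median changes were 0.96 in the first and 0.83 in the second interval for upregulated DEGs, and −0.96 and −0.65 for downregulated DEGs.

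These medians depended on single libraries and on the scale. Placed 1 library at a time between the means of the outer stages, the E11.5 libraries had median positions of 57.9%, 47.0% and 58.9% for upregulated and 61.8%, 52.6% and 62.3% for downregulated DEGs, so E11.5 replicate 2 lay nearest to E10.5 in both. Without E12.5 replicate 2 the median share of the downregulated DEGs was 45.3%. On the linear scale of CPM the median share was 36.2% for upregulated and 73.6% for downregulated DEGs, because equal folds are smaller steps in CPM at low levels.

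**Figure D3:**
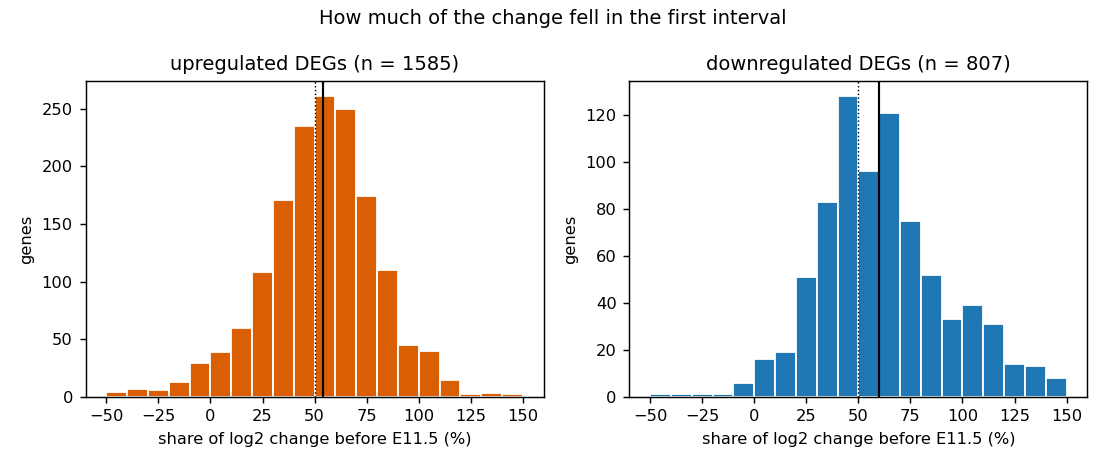
Number of upregulated (left) and downregulated (right) DEGs by the percentage of their log2 change that fell before E11.5, with the median as a solid line and equal intervals as a dotted line. Values outside the range shown, 11 upregulated and 18 downregulated genes, are left out, and the downregulated genes have the longer tail above 100%.

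In 1453 upregulated (91.7%) and 674 downregulated DEGs (83.5%) both intervals had the direction of the net change. The first interval ran against it in 69 upregulated and 10 downregulated DEGs. The second ran against it in 63 upregulated and 123 downregulated DEGs, so that the mean at E11.5 was beyond that at E12.5. By calls in the separate comparisons of each interval, 318 upregulated and 271 downregulated DEGs were called in the first alone, 395 and 75 in the second alone, 159 and 31 in both, and 713 and 430 in neither.

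Whether the intervals differed was then tested for each gene by a contrast, the first log2 change minus the second. It uses the same E10.5 and E12.5 libraries as the net change and is orthogonal to it only in a balanced design. Of the genes of the span fit 1.16% passed an adjusted p-value of 0.05 in edgeR's quasi-likelihood test, Benjamini-Hochberg adjusted. Among the DEGs, 52 upregulated (0.327% of the genes tested) and 31 downregulated genes (0.195%) changed more in the first interval, and 16 (0.101%) and 4 (0.0252%) changed more in the second. At an unadjusted p-value below 0.05 the intervals differed in 422 upregulated and 227 downregulated DEGs. These counts varied strongly with single libraries. Without E10.5 replicate 3 they were 104, 56, 32 and 11 in the same order, and without E11.5 replicate 3 they were 11, 4, 2 and 2.

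**Figure D4:**
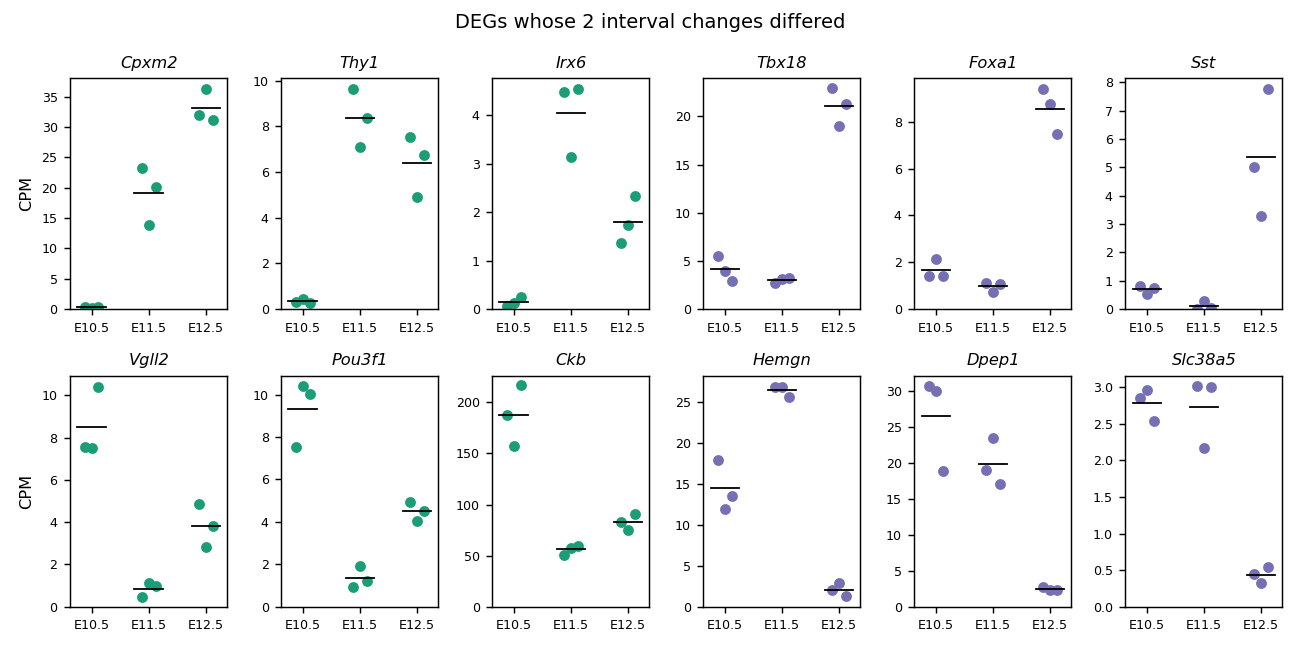
CPM of each library at the 3 stages (points, horizontal line at the mean of 3 libraries) for 12 DEGs whose interval changes differed, with genes that changed more in the first interval in green and more in the second in purple. Each panel has its own linear axis from 0, and Cpxm2 and Thy1 are near 0 only at E10.5 while Tbx18 and Foxa1 are low until E11.5.

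Among the upregulated genes weighted to the first interval, Cpxm2, a carboxypeptidase-like matrix gene, was at 0.357, 0.232 and 0.372 CPM at E10.5, already at 23.2, 13.9 and 20.2 CPM at E11.5 and at 31.9, 36.2 and 31.1 CPM at E12.5. The first interval held 88.1% of its log2 change, and the interval changes differed by 5.08 (standard error 0.40, adjusted p = 0.000203 in edgeR's quasi-likelihood test, Benjamini-Hochberg adjusted). Thy1, a cell surface glycoprotein gene, reached 7.12–9.63 CPM at E11.5 from 0.248–0.464 CPM and was at 4.91–7.55 CPM at E12.5. Irx6, an Iroquois homeobox gene, was higher at E11.5 (3.13–4.53 CPM) than at either outer stage (0.0594–0.248 and 1.35–2.33 CPM), and so was the serotonin receptor gene Htr1b. AW551984 and the potassium channel gene Kcnj2 completed the named set. The difference for Kcnj2 was lost without E11.5 replicate 3 (adjusted p = 0.0597 in the same edgeR test).

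Among those weighted to the second interval, Tbx18, a T-box factor of mesenchyme, was at 5.47, 4.01 and 2.91 CPM at E10.5, at 2.69, 3.17 and 3.21 CPM at E11.5 and at 22.9, 19 and 21.3 CPM at E12.5. The first change was −0.45 and the second 2.80. Foxa1, a forkhead factor of epithelia, was likewise at 1.42–2.15, 0.721–1.13 and 7.45–9.41 CPM. Sst, the somatostatin gene, was at 0.522–0.832 CPM at E10.5, 0–0.289 CPM at E11.5 and 3.29–7.75 CPM at E12.5. Jag1, a Notch ligand gene, and Alpl, the alkaline phosphatase gene of early bone, differed between the intervals by −1.38 and −2.01. For Alpl and Jag1 the difference was also lost without E11.5 replicate 2. The differences of Sst, Rtn4rl1, Alpl and Jag1 were lost when E11.5 replicate 1 or E11.5 replicate 3 was left out, with adjusted p-values of 0.0541–0.139 in edgeR's quasi-likelihood test, Benjamini-Hochberg adjusted.

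All 6 named downregulated genes of the early-weighted set (Vgll2, Pou3f1, Ckb, Shh, Sema5b and Hmx1) had their lowest mean at E11.5. Vgll2, a cofactor of TEAD proteins, went from 7.55, 7.49 and 10.4 CPM to 0.484, 1.11 and 1 CPM and back to 4.85, 2.8 and 3.82 CPM. Pou3f1, a POU-domain factor, had a first change of −2.77 and a second of 1.73, and the creatine kinase gene Ckb had −1.74 and 0.56. The Hedgehog ligand gene Shh fell from 16.4–30.2 to 3.23–4.66 CPM and was at 6.52–13.7 CPM at E12.5. Over the span the values of Vgll2, Pou3f1 and Shh were −1.14, −1.04 and −1.22, and without E10.5 replicate 3 they were −0.96, −0.98 and −0.98 and the genes were not DEGs. Vgll2 and Shh also lost the call without E12.5 replicate 2 or 3, Pou3f1 without E10.5 replicate 2 or E12.5 replicate 2, and Hmx1 without E10.5 replicate 1 or E12.5 replicate 1 or 2. The difference between the intervals was lost for Shh and Hmx1 without E11.5 replicate 1 or 3 and for Sema5b without E11.5 replicate 2 or 3, with adjusted p-values of 0.0531–0.0704 in edgeR's quasi-likelihood test, Benjamini-Hochberg adjusted.

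The late-weighted downregulated genes were 4. Hemgn, an erythroid nuclear protein gene, was at 11.9–17.9 CPM at E10.5, at 25.5–26.8 CPM at E11.5 and at 1.37–2.86 CPM at E12.5. Dpep1, which encodes a membrane dipeptidase, was at 18.8–30.6, 17.1–23.4 and 2.32–2.82 CPM. The amino acid transporter gene Slc38a5 was at 2.54–2.96, 2.16–3.01 and 0.323–0.537 CPM. Its difference was lost without any one of the E11.5 libraries and without E10.5 replicate 2 or E12.5 replicate 1, with adjusted p-values of 0.0536–0.215 in edgeR's quasi-likelihood test, Benjamini-Hochberg adjusted.

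Slow changes made up 31.6% of the upregulated and 37.3% of the downregulated DEGs. A DEG was called slow when it changed by at least 2-fold over the span but by less than 2-fold in each interval, which limits it to less than 4-fold in all. There were 501 slow upregulated DEGs (3.15% of the genes tested) and 301 slow downregulated DEGs (1.89%). Of the DEGs under 4-fold, which number 934 up and 542 down, they were 53.6% and 55.5%. Their median log2 change over the span was 1.25 up and −1.21 down, made up of 0.67 and 0.65 in the upregulated and −0.65 and −0.62 in the downregulated genes. Both intervals reached an absolute log2 change of at least 0.5 in 238 and 132 of them. An adjusted p-value of 0.05 or less was found in both intervals for 51 and 27, in the first alone for 104 and 78, in the second alone for 68 and 49, and in neither for 278 and 147. Without E10.5 replicate 3 there were 532 and 336 slow DEGs, and without E12.5 replicate 3 there were 381 and 191.

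**Figure D5:**
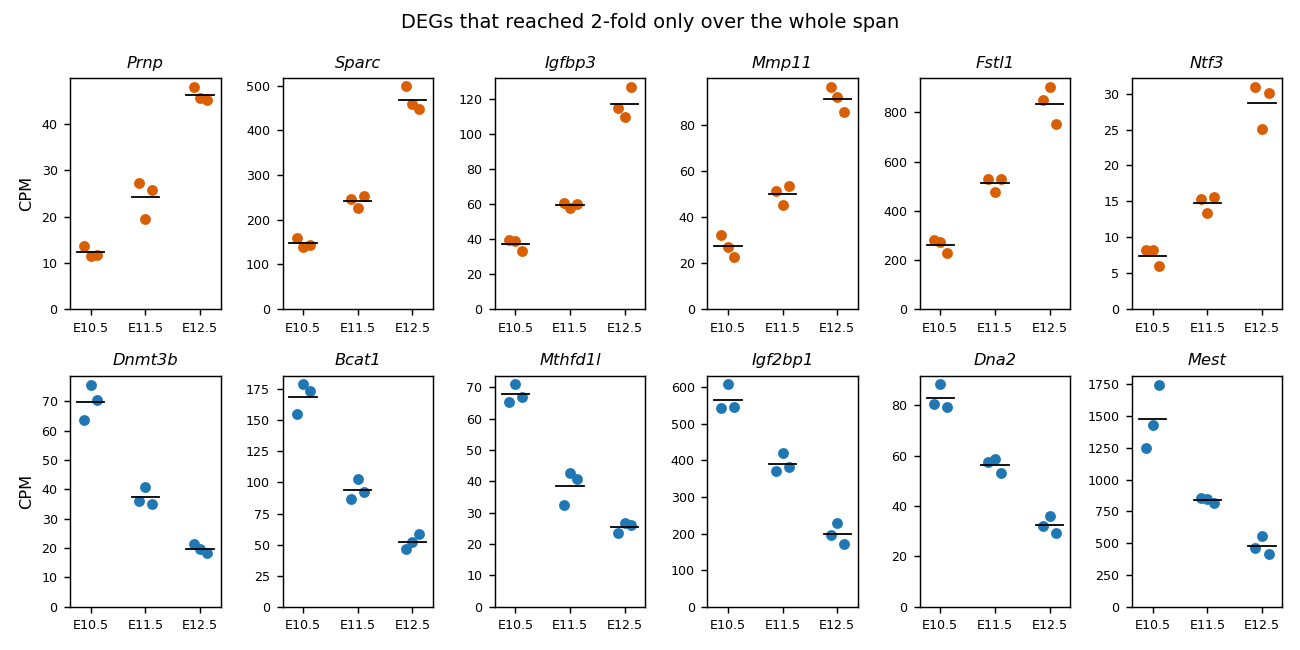
CPM of each library at the 3 stages (points, horizontal line at the mean of 3 libraries) for 6 slow upregulated genes (top) and 6 slow downregulated genes (bottom), each on its own linear axis from 0. In every panel the E11.5 libraries lie between those of E10.5 and E12.5 without overlap.

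The 8 slow upregulated genes with the smallest p-values included several of secreted and matrix proteins. Prnp, which encodes the prion protein, was at 13.7, 11.4 and 11.6 CPM, then at 27.3, 19.6 and 25.8 CPM and then at 48.1, 45.6 and 45.3 CPM. The log2 changes of its intervals were 0.98 and 0.94, and that of the span was 1.92 (standard error 0.18, adjusted p = 3.52e-05 in edgeR's quasi-likelihood test, Benjamini-Hochberg adjusted). Sparc, the matrix glycoprotein osteonectin, was at 160, 138 and 144 CPM, then 246, 225 and 253 CPM and then 498, 460 and 448 CPM. Igfbp3, an IGF-binding protein, was at 33.1–39.5, 57.5–60.5 and 110–127 CPM. Mmp11, a matrix metalloproteinase, was at 22.5–32.1, 45–53.4 and 85.5–96.3 CPM, with 0.87 in each interval. Fstl1, a secreted follistatin-like protein, was at 230–279, 476–530 and 752–904 CPM. Ntf3 (neurotrophin 3) rose by 1.95, Fbxl7 (an F-box protein) by 1.71 and Btg1 by 1.48 on the log2 scale. All 8 kept their call in each fit that left out 1 library, which their choice by p-value made likely.

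The 8 leading slow downregulated genes included RNA and DNA regulators and metabolic enzymes. Dnmt3b, a de novo DNA methyltransferase, was at 63.7, 75.7 and 70.3 CPM, then at 35.9, 40.8 and 35.1 CPM and then at 21.4, 19.8 and 18.2 CPM, with −0.91 in each interval and −1.81 over the span (standard error 0.18). Bcat1, an aminotransferase of branched-chain amino acids, was at 155–179, 86.9–103 and 46.5–58.2 CPM, with −0.85 in each interval. Igf2bp1, an RNA-binding protein of embryonic cells, was at 542–608, 371–419 and 172–230 CPM, with less of the change in the first interval (−0.53) than in the second (−0.97), a difference that did not pass the test (adjusted p = 0.512 in edgeR's quasi-likelihood test, Benjamini-Hochberg adjusted). Mthfd1l, a mitochondrial folate enzyme, fell by 1.41, and Dna2, a nuclease and helicase of replication, by 1.34. The imprinted gene Mest fell by 1.62, the glycolytic enzyme gene Eno1 by 1.44 and Rab11fip1, a gene of vesicle recycling, by 1.66. These 8, chosen in the same way, also kept their call without any 1 library. An 8-base let-7 site was found in the 3′ UTR of 18 of 257 slow downregulated genes (7%) and 15 of 461 slow upregulated genes (3.25%).

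At the edges of these definitions the values show how little separates the classes. Among protein-coding genes the slow upregulated DEG whose larger interval change lay nearest to 1 was Fam129a (0.06 and 1.00), and the nearest beyond it was Ankrd44 (1.00 and 0.08). On the downregulated side these were Bhlhe22 (−0.99 and −0.46) and Lama1 (just past −1 and −0.68). Leaving out 1 library ended the span call of Fam129a in 4 of 6 fits (E10.5 replicate 1 or 2, E12.5 replicate 1 or 2), that of Bhlhe22 in 5 (each but E10.5 replicate 3) and that of Ankrd44 in 1 (E12.5 replicate 2). For the span itself, Aldoc was the upregulated DEG with the smallest change, not called without E10.5 replicate 1 or 2 or E12.5 replicate 1 or 3, and Epha3 the gene just below the threshold, both with a log2 fold change that rounds to 1.00. Trmt9b was the gene just short of being downregulated.

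Per unit of transcript length the DEGs included some of the most abundant transcripts, chosen here by level after their values had been seen. In the deposited FPKM, the upregulated DEGs with the highest level at E12.5 were Hba-a1, at 414 ± 183 FPKM at E10.5 and 925 ± 133 at E12.5, and Lgals1, which encodes galectin-1, at 80.6 ± 9.08 and 521 ± 158 (SD, n = 3). Cxcl14, a chemokine gene, went from 6.82 ± 2.84 to 236 ± 43.2 FPKM. The downregulated DEGs with the highest level at E10.5 were Hbb-bh1, at 1384 ± 417 and 255 ± 66.2 FPKM, and Crabp1, a retinoic acid-binding protein gene, at 852 ± 161 FPKM at E10.5 and 319 ± 80.7 at E12.5. Pkm, Eno1 and Ldha, all of glycolysis, were at 589 ± 50.2, 478 ± 52.5 and 446 ± 76.7 FPKM at E10.5 and at 270 ± 16.1, 174 ± 12.3 and 194 ± 42.1 FPKM at E12.5.

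Promoters of DEGs were described by 1 further sequence feature, the TATA box. The motif TATAAA, read on the transcribed strand and starting 40 to 20 bases before the RefSeq start (GRCm38.p6), was found in 39 of 1113 upregulated genes with a promoter entry (3.5%), in 17 of 510 downregulated genes (3.33%), in 105 of 9692 genes that were not called (1.08%) and in 161 of all 11315 (1.42%). It was in 18 of 453 genes that rose at least 4-fold (3.97%) and 9 of 170 that fell at least 4-fold (5.29%). The 60 bases before the start are shown for 4 genes described above that hold it, with the motif in capitals:
Anxa1, chr19:20390672-20390731, minus strand: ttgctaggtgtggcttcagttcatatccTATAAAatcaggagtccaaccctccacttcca
Postn, chr3:54361047-54361106, plus strand: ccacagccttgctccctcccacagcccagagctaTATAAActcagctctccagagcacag
Btg1, chr10:96616941-96617000, plus strand: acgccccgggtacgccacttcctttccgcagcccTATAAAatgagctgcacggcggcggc
Ckb, chr12:111672339-111672398, minus strand: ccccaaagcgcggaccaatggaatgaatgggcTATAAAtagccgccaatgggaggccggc

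A match is a description of letters, and factor binding was not measured.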

How the data were processed

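RNA-seq of lambdoidal junction tissue at 3 stages (3 libraries each) was analysed from 1 deposited table. The authors mapped reads to GRCm38/mm10 with HISAT2 2.0.5, and its count columns hold the whole-number counts per gene that they obtained with featureCounts. FPKM values were computed by the authors from these counts and gene lengths, and were used here only to compare levels between genes. Columns with the authors' own fold changes and p-values were not used. Whether reads were counted by strand is not given in the sources used here. Nothing states that the pools came from separate litters, so p-values measure the spread between these libraries, which may be technical.

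The span was fitted on its 6 libraries, and the intervals and their contrast on all 9, in R 4.3.3 with edgeR 4.0.16 (filterByExpr, TMM, quasi-likelihood test, Benjamini-Hochberg adjustment). Standard errors were derived from the F statistic and the log2 fold change. Means are given with the SD over 3 libraries. A stage with at most 3 counts in every library was taken as the limit of detection (0.179 CPM at E10.5), and folds against it are lower bounds that cover counting error only. Depth was 16581009–20836804 counts. The fits were tested on simulated counts. Python 3.11.15 was used for tables and figures.

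The comparison, the classes and the 26 gene lists were chosen with earlier results of these data known. Genes named by rule are protein-coding: the 12 DEGs of each direction with the smallest p-value and no overlap of libraries, the 8 slow DEGs, the 6 DEGs of each interval weighting, and up to 3 DEGs of each direction in a list. Mki67, Top2a, Trp63, Col2a1 and other members without a call, and slow genes listed by name, were picked after their values were seen. Alternatives were normalization by DESeq2 1.42.0 size factors or upper quartile, DESeq2 itself, filters of at least 1 count or a mean of at least 10, protein-coding genes alone, removal of the GC trend, a block for the replicate number, each library left out, a threshold of 0.01, glmTreat, a span from 9 libraries, intervals from separate fits, and a share on the CPM scale, with a prior count of 2 or without genes at the limit. Recounting each gene list under these alternatives was added after seeing the data.

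Exons overlapping a gene on the opposite strand made up 11.0–31.8% of the length of Dusp5, Gas1, Hes5, Hmx1, Htr1b, Lef1, Mest, Myh7, Shh and Tbx18, and values of Eno1 and Hmga1 may include reads of near-identical copies. Values of 3 genes named by these rules are not reported here. Mature microRNA and promoter sequences are from RefSeq (GRCm38.p6).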

Additional observations from a re-analysis of the deposited data

How the results depend on the processing

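No fold change or interval difference of a named gene changed sign under the alternatives run. The interval with the larger median share did change, from the first to the second, for downregulated DEGs without E12.5 replicate 2 (45.3%) and for upregulated DEGs on the CPM scale (36.2%). The counts of DEGs kept within 1.5 times of 1585 upregulated and 807 downregulated genes except for glmTreat, which tests against 2-fold (692 and 241), and, for the downregulated genes, a threshold of 0.01 on the adjusted p-value (518). With DESeq2 they were 1621 and 949, and 9573 genes had no adjusted p-value there. Leaving out 1 library gave 1274–1710 upregulated and 583–1028 downregulated DEGs, 352–532 and 191–365 slow DEGs, and median first-interval shares of 51.5–58.1% and 45.3–63.4%. The slow DEGs numbered 312 and 186 at the threshold of 0.01, and 713 and 430 when slow meant called in neither interval. The median shares were 36.2% and 73.6% on the CPM scale. The early- and late-weighted sets were the least stable. Leaving out 1 library gave 11–104 early-weighted upregulated, 4–56 early-weighted downregulated, 2–32 late-weighted upregulated and 2–22 late-weighted downregulated DEGs. In the same order the counts were 184, 113, 54 and 19 with all genes that had at least 1 count, 114, 75, 43 and 8 with DESeq2, and 13, 6, 2 and 2 at the threshold of 0.01. The cause of these shifts was not tested.

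Whether the replicate numbers pair the libraries is not known. The deviations of same-numbered libraries from their stage means had correlations of −0.151 to 0.22, and those between E10.5 and E12.5 were 0.178, 0.0701 and 0.22. These were not compared with libraries of different numbers, so they cannot decide this. With the replicate number as a block there were 1613 upregulated and 861 downregulated DEGs, 508 and 329 slow DEGs, median shares of 54.9% and 57.1%, 56 and 32 early-weighted DEGs and 18 and 6 late-weighted DEGs. Krt18 (−0.98) and Fam129a (1.05, adjusted p = 0.0606 in edgeR's quasi-likelihood test) were not called there.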
